A study of Arabidopsis thaliana with 18 samples.

Results

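The response of the ft-10 mutant to a single far-red-enriched photoperiod (FRP) was read by comparing 3 shoot apex libraries collected after FRP with 3 from untreated plants. These 6 libraries are all those labelled with the ft genotype, out of 18 in the series. The other 12 come from the wild type (WT) and from tfl1-1 mutants, with 3 libraries per genotype and treatment. All plants were Arabidopsis thaliana of the Col-0 accession, 42 days old and grown in short days of 8 h light and 16 h dark. The ft-10 allele is a null allele of FLOWERING LOCUS T caused by a T-DNA insertion, and both ft groups carry it. The treated plants received 24 h of FRP starting when the short day ended, at lower light intensity and a lower ratio of red to far-red light than the controls, which stayed in short days. A longer photoperiod, far-red enrichment and lower intensity therefore changed together and cannot be told apart here. The methods do not say in so many words whether the light was unbroken through the night. The study's methods keep the controls in short days for 24 h as well. Both groups would then share an hour of the day if collected right after those 24 h. The clock hour at which each library was collected is not among the labels, so this cannot be checked, which bears on every clock gene below. Each library pooled shoots of several plants after leaves and roots had been taken off.

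As background, FT protein is the florigen: leaves make it in long days, and it travels to the shoot apex, where it acts with the bZIP factor FD to switch on floral genes. TERMINAL FLOWER 1 (TFL1) is a close relative of FT that also binds FD and keeps the meristem vegetative. Light reaches the apex by other routes as well. Phytochromes and cryptochromes reset the circadian clock, set the activity of the growth-promoting PIF factors and of the photomorphogenesis factor HY5, and light itself feeds sugar metabolism. In a plant without FT, a photoperiod shift can be read in the apex without the florigen that the same shift would normally send there.

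Library totals ran from 29734854 to 30868764 counts without FRP and from 33455501 to 34457807 with it. The 2 groups separated on the leading principal component, which carried 77.9% of the variance. The biological coefficient of variation between replicates was 0.0711. Within groups, Spearman's rank correlations between libraries were 0.9968 to 0.9982 in untreated ft and 0.9908 to 0.9976 after FRP, against 0.968 to 0.9749 between the groups. FRP replicate 1 stood apart from the other FRP libraries by transcript length: its log2 level changed by −0.17 per doubling of length, against 0.0316 and −0.0458 in FRP replicates 2 and 3 and 0.0328, 0.0943 and 0.0573 in the untreated libraries. Across genes the FRP effect was lower for longer transcripts (Spearman's rho −0.241, genes not being independent replicates). Its part in the results was not tested, and several gene families are given below with this trend removed as well. Summed shoot apex markers (7 genes, STM and KNAT1 among them) ran from 213.2 to 220.5 CPM (counts scaled to library size) in untreated ft and from 406.7 to 428.7 CPM after FRP, with none at 0. Much of this sum and of its rise came from STM, while WUS and CLV3 in the same set were too low to compare. Of 7 root markers, 3 were at 0 in all 6 libraries (PLT1, EXP7 and RHD6), and the sum ran from 32.51 to 35.1 CPM untreated and 37.15 to 43.37 CPM after FRP, most of it from SHR. The sum of 8 leaf, guard cell, trichome and phloem markers was 2826 to 2950 CPM untreated and 2023 to 2196 CPM after FRP, nearly all of it RBCS1A, a Rubisco small subunit gene that apex tissue also expresses. Without RBCS1A it was 91.25 to 92.8 CPM untreated and 74.06 to 97.86 CPM after FRP, so the groups overlapped. In whole apices, more cells of a type and more RNA per cell cannot be told apart.

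FT itself (AT1G65480, chromosome 1) was counted 11, 17 and 22 times in the untreated replicates and 36, 27 and 28 times in the FRP replicates, and the groups did not overlap (log2 fold change 0.72 ± 0.28 SE, edgeR adjusted p = 0.0584). It was listed at 0 in all 6 WT apex libraries and at 0 to 3 counts in the tfl1 libraries. FT transcription belongs to leaf veins, so the wild-type apex gives no positive level to compare with. The counts are summed over the gene model and do not say whether reads came from before or after the insertion. FT therefore does not check the ft label by a loss of signal.

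FRP changed a large part of the transcriptome of ft apices. Of 20789 genes tested, 2916 (14.0%) were higher and 3185 (15.3%) were lower after FRP at an adjusted p of at most 0.005 in edgeR's quasi-likelihood test. Most changes were modest. At least a 2-fold rise was seen for 781 of these genes and at least a 2-fold fall for 427, and at least a 4-fold change for 185 higher and 97 lower genes. The median log2 fold change of all genes tested was −0.00448, which is the value the lists below are set beside. The counts in each list are to be set beside the 14.0% higher and 15.3% lower of all genes. Some lists had no larger share called than all genes together. These were the trehalose-6-phosphate (23.5%), brassinosteroid (25%), nitrate (25%), heat shock (28.6%) and core histone lists (2.56%). The share for ribosomal protein genes was close to it (30.3%). Leaving out single libraries moved these counts by more than 1.5 times in several cases: to 1763 higher and 1976 lower genes without untreated replicate 2, to 1630 and 1789 without untreated replicate 3, to 1717 and 1731 without FRP replicate 3, and to 2053 lower genes without untreated replicate 1. Among genes given below, some calls also ended without at least untreated replicate 3 or FRP replicate 3. These were UFO, NIA1, AS1, MYB12, SPA2, SAUR3, KIN2, PHYC, GA20OX1, EMB3105, AT3G13120 and AT3G20230, at edgeR adjusted p of 0.00504 to 0.0163 in the libraries left.

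Among genes with a symbol and a mean of at least 50 counts, the largest rises belonged to the morning arm of the clock, to wall loosening and to the light response. LHY, a MYB factor that peaks at dawn and represses evening genes, was at 0.906, 0.925 and 0.762 CPM in untreated replicates 1 to 3 and at 47.3, 55.1 and 51.9 CPM after FRP (log2 fold change 5.89 ± 0.11 SE, edgeR adjusted p = 2.26e-08). Its partner CCA1 went from 0.680, 0.958 and 0.895 CPM to 28.3, 35.5 and 31.8 CPM (5.23 ± 0.14, edgeR adjusted p = 7.87e-08). In both, every FRP library lay far above every untreated one. XTH19, a xyloglucan endotransglucosylase of growing cell walls, read 1.52, 2.11 and 1.82 CPM untreated and 53.4, 40.2 and 46.5 CPM after FRP (4.68 ± 0.15, edgeR adjusted p = 1.12e-07). HFR1, a bHLH protein that restrains shade elongation and is itself induced by far-red light, rose from 4.21, 2.68 and 3.05 CPM to 69.8, 57.0 and 65.8 CPM (4.27 ± 0.14, edgeR adjusted p = 1.62e-07). These were the leading genes that were not part of the clock. The same rule also named the clock genes RVE8 and LNK3, the B-box gene BBX29 (3.99 on the log2 scale) and DDF1, a DREB-type AP2 factor (3.62).

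The steepest falls among genes with a symbol and a mean of at least 50 counts were of ABR1, an ERF-type factor, and PIF7, the phytochrome-interacting factor that drives elongation in shade. ABR1 read 11.1, 16.1 and 12.6 CPM untreated and 1.11, 0.929 and 0.467 CPM after FRP (log2 fold change −3.99 ± 0.24 SE, edgeR adjusted p = 4.01e-06). PIF7 read 2.62, 3.24 and 3.41 CPM and then 0.210, 0.300 and 0.350 CPM (−3.41 ± 0.22, edgeR adjusted p = 5.81e-06). Its fall is the opposite in sign to the rise of HFR1, its antagonist. FKF1, the blue-light F-box protein that degrades repressors of CO, fell from 73.0, 71.5 and 70.3 CPM to 8.30, 8.96 and 9.43 CPM (−3.01 ± 0.064, edgeR adjusted p = 3.34e-08). The rest of the group was the methionine sulfoxide reductase gene MSRB6 (−3.15), the DREB-type factor RAP2.9 (−3.02), MYB76 (−2.88), which activates aliphatic glucosinolate synthesis, ACD6 (−2.77), an ankyrin protein of salicylic acid defence, and the cold-regulated gene COR15B (−2.73).

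**Figure D1:**
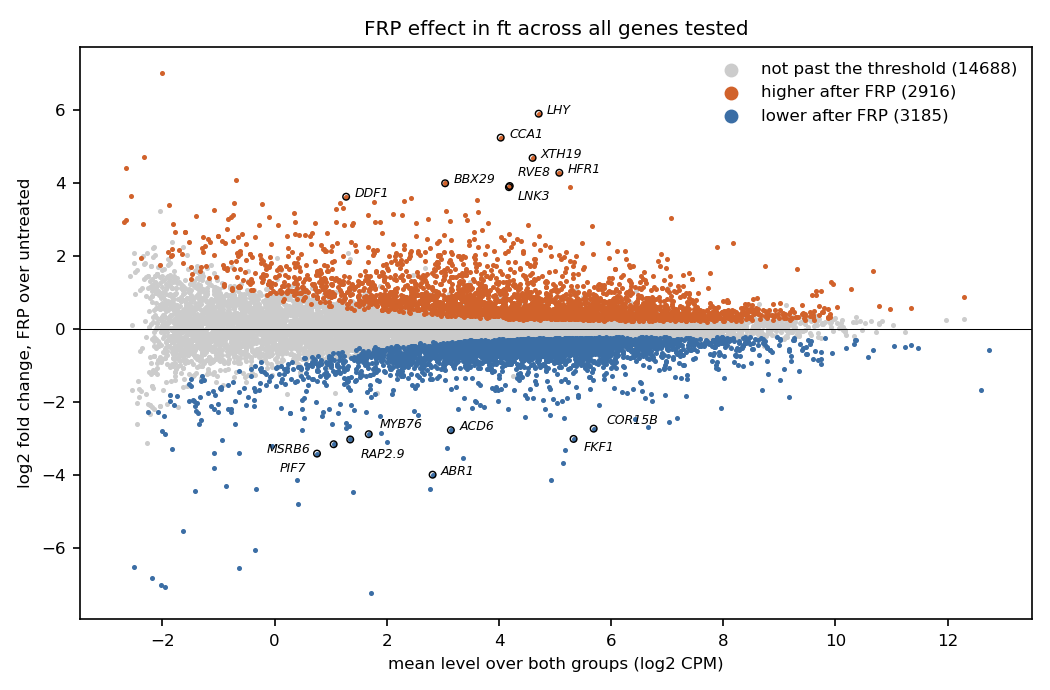
Log2 fold change (FRP over untreated in ft) of each of the 20789 genes tested, on the y axis, against its mean level in log2 CPM on the x axis, with genes past the adjusted p of 0.005 in orange (2916 higher) and blue (3185 lower). Named points are the 8 genes in each direction picked by the naming rule, from LHY at 5.89 to ABR1 at −3.99; points beyond them are genes of low count or without a symbol.

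All 11 morning clock genes tested were higher after FRP, with a median log2 fold change of 2.81 and a range of 0.818 to 5.89. RVE8, which activates evening genes in the early day, went from 2.33, 2.02 and 2.49 CPM to 33.7, 33.7 and 35.5 CPM (log2 fold change 3.91 ± 0.084 SE, edgeR adjusted p = 3.34e-08). LNK3, a member of the coactivator family that works with the RVE proteins, went from 1.88, 2.25 and 2.78 CPM to 34.3, 33.5 and 33.9 CPM (3.88 ± 0.11, edgeR adjusted p = 7.87e-08). The 3 FRP libraries were nearly level for both genes. LNK2 and LNK4 rose by 2.81 and 2.54 on the log2 scale, and RVE1 and RVE2, the latter also known as CIR1, by 2.95 and 2.40.

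The G-box, CACGTG, is the core motif that PIF, HY5 and other bZIP and bHLH factors bind. It was present on either strand in 8 of the 11 morning clock promoters (72.7%), against 8.72% of all promoters of tested genes. The shares were 11.4% of all higher genes and 9.45% of all lower genes. Lists with more lower than higher members also held it often: daytime and evening clock genes (28.6%) and light-harvesting antenna genes (27.8%). LUX (−1.24), DFR (−2.53) and HSFA2 (−1.34) are among the genes that fell and held it. Promoters were 250 bases before to 50 bases after the gene start in RefSeq's TAIR10.1 annotation. The windows around the G-box are shown for the 5 genes of this group that held it wholly before the gene start. Each is given 5′ to 3′ with the motif in capitals and 10 bases either side. In the rest of the 8 it was found only at or after the gene start, and these are not shown.
LHY: acaatatcacCACGTGtcgatctgcg
CCA1: gtgtatcagaCACGTGtcgacaaact
LNK3 upstream: aatcacatgcCACGTGtcttattctc
LNK3 downstream: aagagagtgtCACGTGtgcctagata
RVE1: gaaagagcgaCACGTGgcaaagatgg
RVE2: agaaatcctcCACGTGtcattagcat
The windows lie at chr1:37936-37961 (minus strand) for LHY, chr2:19245388-19245413 (plus strand) for CCA1, chr3:3923334-3923359 and chr3:3923364-3923389 (plus strand) for LNK3, chr5:5693088-5693113 (minus strand) for RVE1 and chr5:14753236-14753261 (minus strand) for RVE2. The motif begins 80 bases before the gene start in LHY and 193 in CCA1, 171 and 141 in LNK3, whose promoter held it at both places, 111 in RVE1 and 163 in RVE2. A match of letters is a description and not evidence of binding.

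Of 14 daytime and evening clock genes tested, 8 were lower and 2 were higher, with a median of −0.586. ELF4, a subunit of the evening complex that represses genes at night, fell from 53.5, 56.3 and 56.9 CPM to 15.0, 13.4 and 13.8 CPM (log2 fold change −1.98 ± 0.064 SE, edgeR adjusted p = 1.23e-07). Its partner LUX, the DNA-binding subunit, fell by 1.24 and ELF3, the scaffold, by 0.38. So all 3 subunits of the complex were lower, by unequal amounts. TOC1, the evening pseudo-response regulator that represses CCA1 and LHY, read 174.9, 168.3 and 176.3 CPM untreated and 100.1, 106.5 and 99.8 CPM after FRP (−0.76 ± 0.049, edgeR adjusted p = 5.38e-06). PRR5 read 49.8, 51.0 and 49.9 CPM and then 16.3, 20.5 and 19.3 CPM (−1.43 ± 0.082, edgeR adjusted p = 3.10e-06), and PRR3 fell by 1.31. GI, a scaffold for FKF1 and ZTL in both clock and flowering, went from 83.4, 87.2 and 84.5 CPM to 38.4, 58.5 and 48.8 CPM (−0.81 ± 0.13, edgeR adjusted p = 0.000857), with the FRP libraries more spread than the untreated ones. The call for GI ended without untreated replicate 2 or 3 or FRP replicate 3 (edgeR adjusted p of 0.00542 to 0.00622), as did that for ZTL. The 2 that were higher were PRR9, the earliest of the PRR wave (2.30 ± 0.32, edgeR adjusted p = 0.000429), and ZTL (0.35), whose protein degrades TOC1 and PRR5. PRR7, LKP2, CHE and BOA did not pass the threshold.

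**Figure D2:**
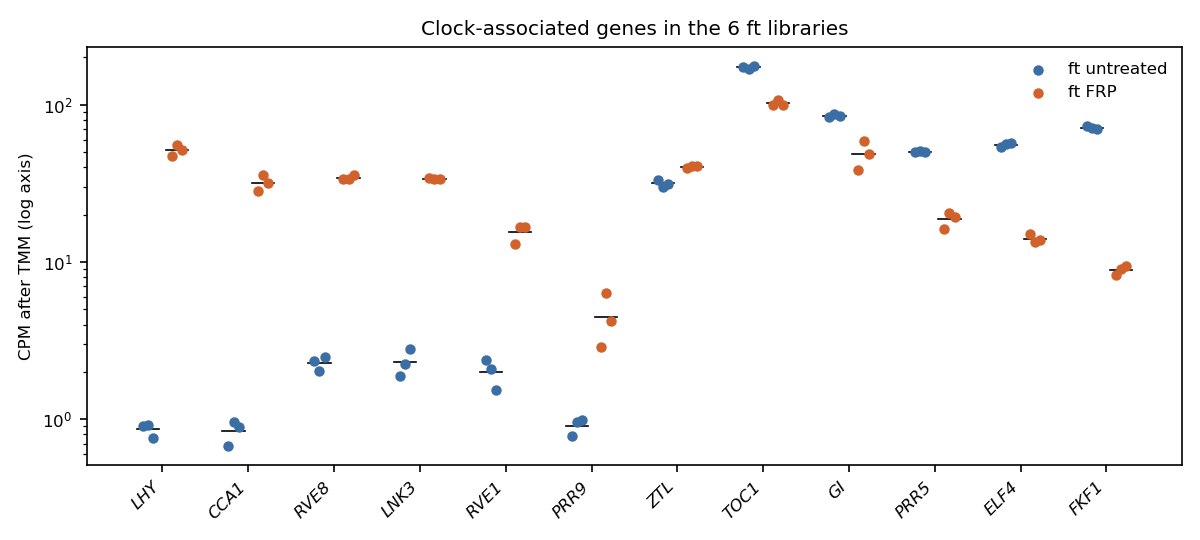
Level in CPM (log axis) of 12 clock genes in each of the 3 untreated (blue) and 3 FRP (orange) ft libraries, with the group mean as a bar. LHY lies at 0.762 to 0.925 CPM untreated and 47.3 to 55.1 CPM after FRP, while FKF1 falls from at least 70.3 to at most 9.43 CPM.

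The evening element, AAAATATCT, is the motif through which CCA1, LHY and RVE proteins act on evening genes. It was found on either strand in 6 of the 14 promoters of daytime and evening clock genes (42.9%), in 1 of the 11 morning clock promoters and in 3% of all promoters of tested genes. Among the 97 genes that fell at least 4-fold, 14 held it (14.4%), against 10 of the 185 that rose at least 4-fold (5.41%). Some genes given here that rose also held it, COL2 (1.48), ZAT12 (2.29) and RAB18 (2.06) among them. The shares were 5.68% of all lower genes and 2.23% of all higher genes. The element is shown with 10 bases either side for 4 clock genes that fell and for COR27, a cold- and light-regulated repressor of evening genes that fell by 2.69, whose promoter held it on both strands.
FKF1: atattccgagAAAATATCTagcctactca
LUX: tagaagatctAAAATATCTagctaactcg
PRR5: tggagaaaagAAAATATCTagaaaaaatc
TOC1: catcttggagAAAATATCTcatgatattt
COR27 minus: gcagttgaagAAAATATCTttgatatttt
COR27 plus: cttcaactgcAAAATATCTtccaccgtcc
These windows lie at chr1:25508443-25508471 (minus strand) for FKF1, chr3:17182979-17183007 (plus strand) for LUX, chr5:8358715-8358743 (plus strand) for PRR5 and chr5:24674802-24674830 (minus strand) for TOC1. The pair in COR27 lies at chr5:17199912-17199940 (minus strand) and chr5:17199931-17199959 (plus strand), so the windows overlap. The log2 fold changes of these genes after FRP were −3.01 for FKF1, −1.24 for LUX, −1.43 for PRR5, −0.76 for TOC1 and −2.69 for COR27. The CCA1 binding site AAAAATCT was spread more evenly, in 9.51% of lower, 7.76% of higher and 7.93% of all tested promoters.

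Genes that connect the clock to FT moved with it. Of 7 tested genes of the CO and CDF list, 5 were higher and 1 was lower (median 1.13). CDF1, a DOF factor that represses CO and FT in the morning, rose from 8.29, 9.68 and 8.82 CPM to 26.2, 29.9 and 27.8 CPM (log2 fold change 1.65 ± 0.081 SE, edgeR adjusted p = 1.27e-06). CDF2 rose by 1.59 and COL2, a CO relative, by 1.48. CO itself, the activator of FT in long days, read 1.36, 1.69 and 1.69 CPM untreated and 2.104, 3.09 and 2.45 CPM after FRP: the groups did not overlap, but the change of 0.69 ± 0.18 did not pass (edgeR adjusted p = 0.0120), although it did without FRP replicate 1 (0.81, edgeR adjusted p = 0.00212). COL9, which delays flowering, was the member that fell (−1.49 ± 0.046, edgeR adjusted p = 1.10e-07), from 138.8, 134 and 138.3 CPM to 48.6, 49.3 and 48.9 CPM. COL1 was listed at 0 in all 18 libraries and could not be assessed.

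Without FT, several genes at the floral switch still moved. Of 6 tested members of the florigen and FD list, 4 were higher and 1 was lower (median 1.06). TSF, the closest relative of FT and also a florigen, read 0.583, 0.363 and 0.398 CPM untreated and 1.20, 1.26 and 1.401 CPM after FRP (log2 fold change 1.51 ± 0.22 SE, edgeR adjusted p = 0.000627). TFL1, the antagonist, rose as well, from 4.82, 3.77 and 4.08 CPM to 11, 9.74 and 10.2 CPM (1.29 ± 0.11, edgeR adjusted p = 2.31e-05). ATC, a TFL1 relative that delays flowering, also rose (3.10 ± 0.47, edgeR adjusted p = 0.000696), at a mean of only 12.7 counts per library. Activator and repressors of the family were thus higher together. FD, the bZIP factor through which both kinds act, fell from 16.8, 21.1 and 20.09 CPM to 13.6, 14.4 and 13.4 CPM (−0.49 ± 0.090, edgeR adjusted p = 0.00204), while its paralog FDP rose by 0.83. The call for FD ended without untreated replicate 2 or 3 or FRP replicate 3 (edgeR adjusted p of 0.00974 to 0.0134).

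Downstream of these, 5 of 11 tested floral promoters were higher and 1 was lower, with a median of 0.404. The other 7 of the 18 members were too low to test. SOC1, a MADS-box integrator of flowering signals, read 5.79, 4.66 and 6.50 CPM untreated and 20.05, 16.0 and 19.1 CPM after FRP (log2 fold change 1.70 ± 0.13 SE, edgeR adjusted p = 1.41e-05). SPL4, one of the age-pathway factors that activate floral MADS-box genes, went from 3.46, 3.44 and 3.25 CPM to 10.3, 8.54 and 10.2 CPM (1.52 ± 0.11, edgeR adjusted p = 8.69e-06). FUL, a MADS-box gene of the inflorescence meristem, went from 1.00, 1.62 and 1.13 CPM to 2.38, 2.58 and 2.48 CPM (0.99 ± 0.18, edgeR adjusted p = 0.00206). In all 3 genes the groups did not overlap, but the call for FUL ended without untreated replicate 1 or 3 or FRP replicate 3 (edgeR adjusted p of 0.00969 to 0.0132). The genes that give a primordium floral identity read otherwise. LFY, the master regulator of that identity, was at 0.906, 0.562 and 0.729 CPM untreated and 1.05, 0.929 and 0.934 CPM after FRP (0.40, edgeR adjusted p = 0.153), with no overlap but a small gap. AP1, which LFY activates, had 2, 3 and 2 counts untreated and 7, 8 and 6 after FRP, too few to test. LMI2, a MYB regulator in the same step, changed by 0.23 (edgeR adjusted p = 0.00981), and LMI1, an HD-Zip gene of that step, was the member that fell (−0.56), a call that ended without untreated replicate 1 or 2 or FRP replicate 3 (edgeR adjusted p of 0.00626 to 0.00862). SPL15 was listed at 0 in all 18 libraries, and SPL3 at 0 in the ft libraries.

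Of 10 floral repressors tested, 2 were higher and 3 were lower (median −0.245). TOE3, an AP2-like repressor, fell by 0.79. FLC, the vernalization repressor, fell from 13.7, 12.7 and 12.2 CPM to 9.44, 8.33 and 10.2 CPM (log2 fold change −0.46 ± 0.090 SE, edgeR adjusted p = 0.00264), and this call ended without any single library except FRP replicates 1 and 2 (edgeR adjusted p of 0.00506 to 0.0136). TEM2, which represses FT, rose by 0.66. SVP, a MADS-box repressor that acts with FLC, changed by 0.10 (edgeR adjusted p = 0.0917). The repressors therefore showed no common direction.

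**Figure D3:**
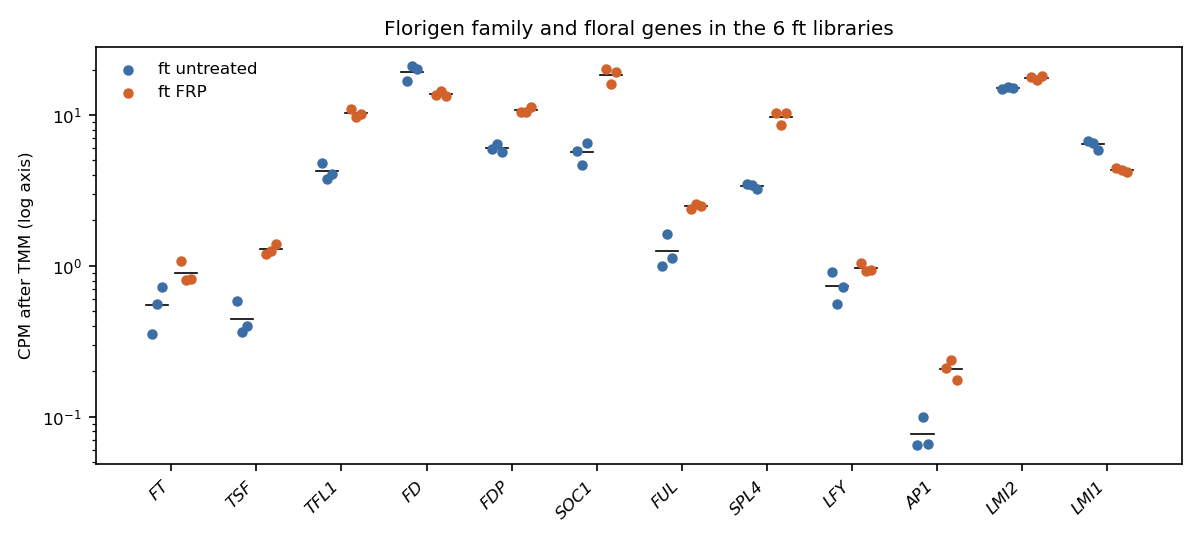
Level in CPM (log axis) of florigen-family and floral genes in each of the 3 untreated (blue) and 3 FRP (orange) ft libraries, with the group mean as a bar. SOC1 lies at 4.66 to 6.50 CPM untreated and 16.0 to 20.05 CPM after FRP, while LFY stays near 1 CPM in both groups and AP1 rests on 2 to 8 counts per library.

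Light signalling genes rose more often than they fell. Of 16 tested genes of HY5, COP1, SPA and B-box signalling, 11 were higher and 2 were lower (median 1.09). HYH, the paralog of the bZIP factor HY5, went from 0.809, 0.859 and 0.895 CPM to 6.61, 6.05 and 6.71 CPM (log2 fold change 2.91 ± 0.12 SE, edgeR adjusted p = 5.42e-07), and HY5 itself rose by 1.09. ELIP1, a light-stress protein of the thylakoid, rose by 3.28 and ELIP2 by 3.13. RUP2, which turns the UV-B receptor off, rose by 2.12, and the B-box gene BBX25 by 2.52. Those that fell were BBX22 (−1.38), a B-box partner of HY5, and SPA2 (−0.46), a subunit of the COP1 ligase.

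Among 10 photoreceptor genes, 2 were higher and 2 were lower (median −0.0545). PHYB, the main sensor of the red to far-red ratio in mature plants, went from 38.4, 53.0 and 47.4 CPM to 89.2, 109.7 and 100.4 CPM (log2 fold change 1.11 ± 0.12 SE, edgeR adjusted p = 9.25e-05), and PHOT1, a blue-light receptor, rose by 0.47. PHYC and CRY2, a phytochrome and a cryptochrome, each fell by 0.57. The shade list was split evenly, with 7 of 18 higher and 7 lower. PIL1, a fast marker of low red to far-red light, rose from 4.72, 4.99 and 6.03 CPM to 15.4, 14.8 and 13.8 CPM (1.48 ± 0.10, edgeR adjusted p = 7.79e-06). HB-2, the HD-Zip factor also called ATHB2, rose by 1.25. These and HFR1 contrast in sign with PIF7, the member that fell most.

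Among genes of cell expansion, more members rose than fell, and many did not pass. Of 61 tested SAUR genes, small auxin-induced proteins that promote expansion, 26 were higher and 1, SAUR3, was lower (median 0.499). With the trend on transcript length and GC content removed, these became 24 and 4 and the median 0.279, and with all 18 libraries in 1 fit 6 were higher. SAUR48 read 0.874, 1.25 and 0.994 CPM untreated and 6.46, 6.53 and 6.48 CPM after FRP (log2 fold change 2.64 ± 0.13 SE, edgeR adjusted p = 1.47e-06). SAUR10 and SAUR22 rose by 2.18 and 2.15. Of 40 tested expansin and XTH genes, which loosen and remodel the wall, 20 were higher and 4 were lower (median 0.556), or 22 and 7 with the trend removed (median 0.389) and 9 and 2 with all 18 libraries. XTH18, next to XTH19 in sequence, rose by 3.53, and because near-identical family members can share reads, their separate values are uncertain. EXPA8 and EXPA1, alpha-expansins, rose by 1.47 and 1.07.

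Hormone lists moved less uniformly. Of 18 Aux/IAA repressors, 6 were higher and 3 were lower (median 0.165). In the gibberellin list 5 of 16 were higher and 3 were lower. GA20OX2, which makes the precursor of active gibberellin, rose from 1.13, 0.991 and 1.19 CPM to 4.06, 3.51 and 4.23 CPM (log2 fold change 1.83 ± 0.14 SE, edgeR adjusted p = 1.71e-05), while GA3OX1, which carries out the last step, fell from 8.67, 8.59 and 9.28 CPM to 4.39, 3.30 and 3.62 CPM (−1.23 ± 0.11, edgeR adjusted p = 4.04e-05). GA20OX1, which acts at the same step as GA20OX2, fell by 0.67. That call ended without any single untreated replicate or FRP replicate 3 (edgeR adjusted p of 0.00603 to 0.00754). Genes of that step thus differed in sign, but the fall was not a stable call. Cytokinin genes (5 of 19 higher, 3 lower) and brassinosteroid genes (3 of 12 higher, none lower) showed medians of 0.197 and −0.0564. With all 18 libraries in 1 fit, 3 cytokinin genes were higher and 1 was lower, and no brassinosteroid gene passed. TCH4, one of the brassinosteroid genes that rose, is also counted in the expansin and XTH list. Of 23 abscisic acid genes, 7 were higher and 2 were lower. NCED3, the rate-limiting step of abscisic acid synthesis, rose by 1.27. Response genes went both ways: RAB18 rose by 2.06, at 0.264 to 1.383 CPM, while RD29A and ABF1 fell by 1.01 and 1.06.

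Of 15 tested shoot meristem and boundary genes, 8 were higher and 2 were lower (median 0.481). STM, the KNOX factor that keeps meristem cells undifferentiated, read 102.6, 90.4 and 97.0 CPM untreated and 260.2, 242.9 and 247.8 CPM after FRP (log2 fold change 1.37 ± 0.059 SE, edgeR adjusted p = 6.13e-07). Its relatives KNAT6, KNAT1 and KNAT2 rose by 0.95, 0.81 and 0.48. UFO, an F-box cofactor of LFY, rose by 1.02 at 0.595 to 1.53 CPM. ANT, which promotes organ growth in primordia, and AS1, which represses KNOX genes in leaf primordia, fell by 0.62 and 0.30. The stem cell genes WUS (1, 2 and 2 counts, then 8, 1 and 4) and CLV3 (7, 8 and 15, then 2, 7 and 5) were too low to compare.

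Of 15 mitotic cyclin, CDKB and related genes, 12 were lower and none was higher (median −0.523). With all 18 libraries in 1 fit 3 were lower. KN, the cytokinesis syntaxin KNOLLE, fell from 71.8, 69.1 and 69.3 CPM to 29.9, 34.8 and 33.0 CPM (log2 fold change −1.11 ± 0.065 SE, edgeR adjusted p = 3.48e-06). The B-type cyclins CYCB2;3, CYCB2;1 and CYCB1;1 fell by 1.01, 0.99 and 0.69, and CDC20.1, an activator of the ligase that ends mitosis, by 0.92. Core histone genes, many but not all of them transcribed in S phase, did not follow. None of 39 was higher and 1 was lower (median 0.0963), or none and 7 with the length and GC trend removed. Of 122 ribosomal protein genes, 32 were higher and 5 were lower (median 0.216). The 5 that fell (EMB3105, AT3G13120, AT3G20230, AT2G42710 and AT5G47940) were caught by family names shared with organelle ribosomes and may not belong to the cytosolic one. The same may hold for other members, whichever way they moved. With the trend removed 32 were higher and 20 lower (median 0.0932), and with all 18 libraries in 1 fit none passed. Their promoters often held the site II element TGGGCC (59% of 122, against 18.6% of all) and the telo-box AAACCCTA (37.7% against 5.68%), elements known from ribosomal genes.

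Photosynthesis and chlorophyll genes were lower more often than higher. Of 18 antenna genes, 11 were lower and 3 were higher (median −0.313), and of 24 nuclear photosystem subunit genes, 10 were lower and 2 were higher (median −0.263). With the length and GC trend removed the antenna genes gave 14 lower and 3 higher (median −0.594) and the photosystem genes 20 lower and 2 higher (median −0.392). With all 18 libraries in 1 fit, 5 antenna and 2 photosystem genes were lower. LHB1B1, a light-harvesting protein of photosystem II, fell most, from 148.9, 143.2 and 142.6 CPM to 32.7, 22.9 and 23.9 CPM (log2 fold change −2.45 ± 0.12 SE, edgeR adjusted p = 1.33e-06). Its near-identical neighbour LHB1B2 was listed at 0 in all 18 libraries, so the value for LHB1B1 is uncertain. LHCB2.1 went the other way, from 96.5, 94.0 and 93.6 CPM to 204.1, 184.2 and 187.7 CPM (1.02 ± 0.053, edgeR adjusted p = 1.78e-06), and it too has near-identical relatives. No chlorophyll synthesis gene was higher and 6 of 10 were lower (median −0.331), led by the protochlorophyllide reductases PORA (−1.65), PORB (−0.88) and PORC (−0.77).

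Starch genes shifted with them. Of 22 tested, 12 were lower and 3 were higher (median −0.409). SEX1, the glucan water dikinase that opens starch to degradation at night, fell from 161.8, 174.1 and 159.3 CPM to 69.9, 104.1 and 89.3 CPM (log2 fold change −0.91 ± 0.12 SE, edgeR adjusted p = 0.000363), and the phosphatase SEX4 and the debranching enzyme ISA3 fell by 0.89 and 0.87. BAM1, a beta-amylase, rose by 0.68. Of 15 sugar starvation genes, 3 were higher and 4 were lower, among them DRM2 (the dormancy-associated gene AT2G33830), which fell from 921.8, 867.4 and 919 CPM to 261.1, 240.7 and 237 CPM (−1.87 ± 0.057, edgeR adjusted p = 1.06e-07). BT2, a BTB protein repressed by sugar, fell by 1.33. Trehalose-6-phosphate genes were higher in 4 of 17 cases and lower in none, with TPPD, a phosphatase, up by 1.25. With the length and GC trend removed 8 were higher and 2 lower. The nitrate reductase genes NIA1 and NIA2 rose by 1.33 and 0.72, the only 2 of 8 nitrate genes past the threshold.

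Of 18 tested flavonoid and anthocyanin genes, 10 were lower and 2 were higher (median −0.706). DFR, the branch point toward anthocyanins, went from 225.8, 218.1 and 225.2 CPM to 36.8, 40.8 and 38.3 CPM (log2 fold change −2.53 ± 0.055 SE, edgeR adjusted p = 3.34e-08). LDOX, the next enzyme, fell by 1.98, the flavonoid hydroxylase TT7 by 1.95, the glutathione transferase TT19 by 1.73 and their bHLH regulator TT8 by 1.64. The 2 that rose were MYB12 (1.48), a regulator of flavonol synthesis, and FLS1 (0.72), a flavonol synthase. Of 19 glucosinolate genes 7 were lower and 2 were higher. CYP79F1, which starts aliphatic glucosinolate synthesis, read 622.5, 633.3 and 630.6 CPM and then 151.2, 247.6 and 198.3 CPM (−1.66 ± 0.15, edgeR adjusted p = 3.46e-05), a fall in the same direction as that of its activator MYB76.

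Cold-regulated genes moved both ways. Of 14 tested, 6 were higher and 4 were lower (median −0.16), and 4 did not pass, COR15A among them (−0.34, edgeR adjusted p = 0.0061). With the length and GC trend removed 6 were higher and 6 lower, and with all 18 libraries in 1 fit none was higher and 2 were lower. CBF2, a DREB factor of cold acclimation, rose from 4.98, 5.55 and 4.97 CPM to 30.6, 30.6 and 31.9 CPM (log2 fold change 2.58 ± 0.069 SE, edgeR adjusted p = 7.87e-08), DDF1 and DDF2 rose by 3.62 and 3.43, and ZAT12, a stress-induced zinc finger gene, by 2.29. The other CBF genes, CBF1 and CBF3, rose by 1.12 and 0.43. COR15B, a chloroplast protectant that CBF factors activate, fell from 91.1, 90.0 and 87.7 CPM to 15.6, 12.6 and 12.4 CPM (−2.73 ± 0.088, edgeR adjusted p = 1.23e-07), and KIN2 fell by 0.53. Of 8 wound and touch genes, 6 were higher and none was lower (median 1.63), but none passed with all 18 libraries in 1 fit. WRKY40 rose by 2.15, ERF6 by 1.80, ERF5 by 1.74 and the calmodulin-like gene CML24 by 1.71. TCH4, a touch-induced XTH of the wall and brassinosteroid lists, rose by 1.90, a call that also ended with all 18 libraries (edgeR adjusted p = 0.126).

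Of 15 jasmonate genes, 5 were higher and 3 were lower (median 0.317). VSP2, a storage protein and late jasmonate marker, fell from 250.8, 240.2 and 242.8 CPM to 51.9, 41.5 and 42.5 CPM (log2 fold change −2.43 ± 0.084 SE, edgeR adjusted p = 1.82e-07), and VSP1 fell by 1.90. The early response gene JAZ5 rose by 1.23. MYC2, the central factor of the pathway, was listed at 0 in all 18 libraries. Of 10 salicylic acid and senescence markers, 5 were higher and 1 was lower (median 0.691), with the defence gene PR2 up by 1.34 and WRKY70 by 1.07. Heat shock genes gave 1 higher and 1 lower of 7, the latter being the factor HSFA2 (−1.34).

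**Figure D4:**
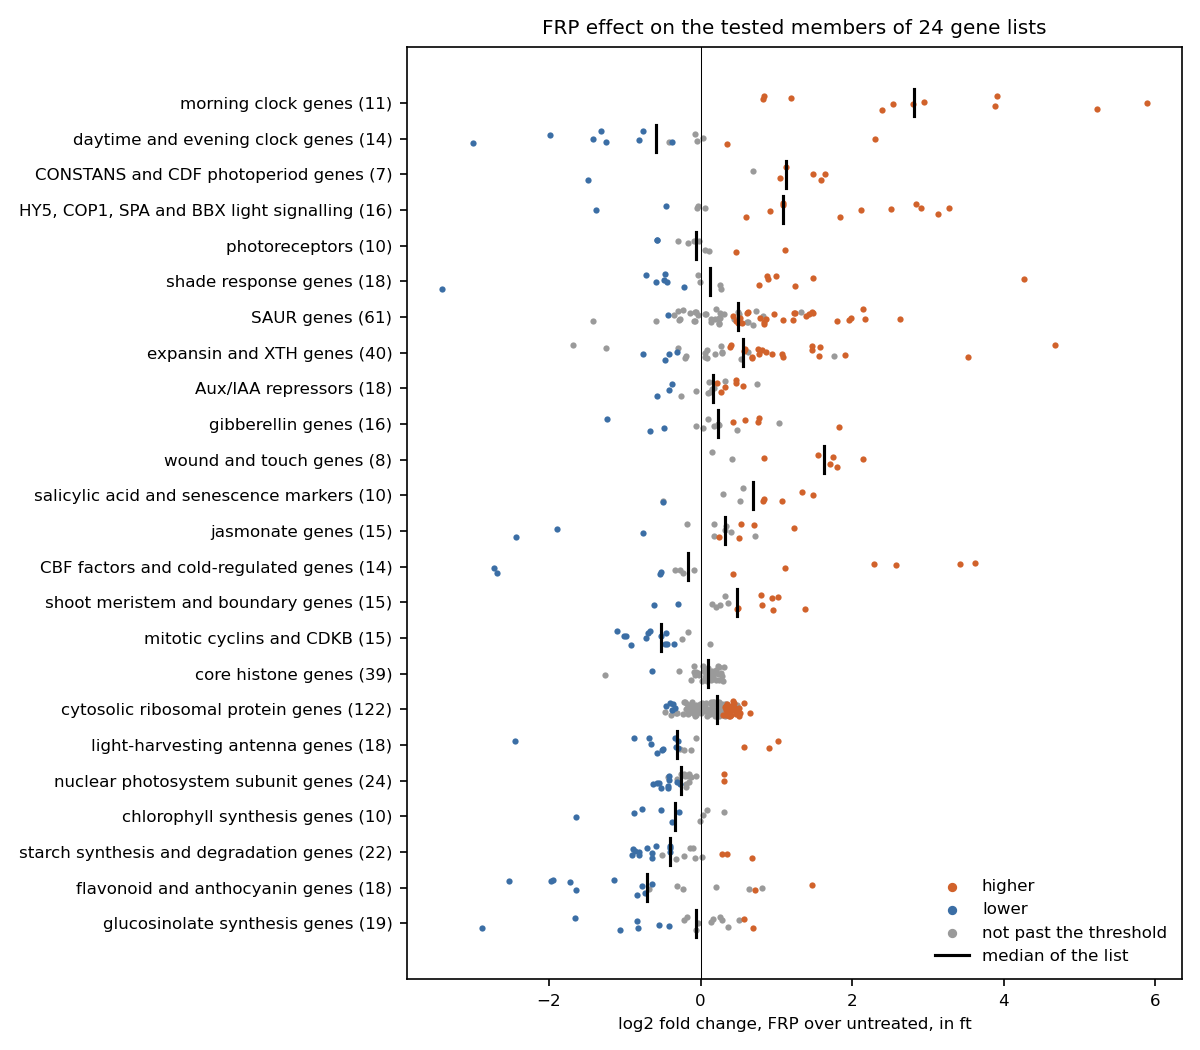
Log2 fold change (FRP over untreated in ft, x axis) of every tested member of the gene lists on the y axis, with the number tested in brackets, orange and blue for members past the adjusted p of 0.005 and a black bar at the list median. Morning clock genes (median 2.81) and wound and touch genes (1.63) lie to the right, and flavonoid (−0.706) and mitotic genes (−0.523) to the left.

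The same treatment was tested in tfl1 and WT, each in its own fit of 6 libraries. Of the 2916 genes higher in ft, 864 (29.6%, or 24.7% of the 3493 higher in tfl1) were also higher in tfl1, and 305 were lower there. Of the 3185 lower in ft, 1218 (38.2%, or 29.6% of 4112) were lower in tfl1 and 384 were higher. In WT the shared genes were 407 higher (14% of ft, 46% of the 884 in WT) and 561 lower (17.61% of ft, 43.2% of 1300). Of all genes tested in ft, 14.0% were higher and 15.3% lower. The 24.7% and 29.6% of tfl1 calls and the 46% and 43.2% of WT calls are to be set beside these. Far fewer genes were called in WT than in tfl1, so the shares of ft are not comparable between them. Across genes, the ft effect had Pearson correlations of 0.413 with that in tfl1 and 0.407 with that in WT. The median absolute log2 fold change was 0.258 in ft and 0.447 in tfl1 over the genes tested in both, and 0.256 in ft and 0.619 in WT. The libraries of the 3 genotypes differed in their length trend, in opposite directions. Relative to all 18 libraries, the mean slope per doubling of length in ft was 0.0111 untreated and −0.108 after FRP. In tfl1 it was −0.17 and 0.183, and in WT −0.212 and 0.297. Untreated WT replicate 1 stood apart from the other untreated WT libraries, at 0.0823 against −0.352 and −0.367.

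The difference between the FRP effects was tested directly as an interaction. The effect in ft was higher than in tfl1 for 4281 genes (20.12% of 21276) and lower for 4204 (19.76%). Against WT it was higher for 2285 genes (10.8% of 21149) and lower for 1422 (6.72%), or for 6285 and 6385 without untreated WT replicate 1. Leaving out any other single library lowered the counts against WT, the furthest to 613 and 202 without untreated ft replicate 2, and the counts were 755 and 216 without WT FRP replicate 3. With the length and GC trend removed, a setting chosen for the genotype differences after seeing the data, 5086 and 2354 genes differed from tfl1, and 1527 and 618 from WT.

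Most photosynthesis genes fell less in ft than in tfl1 or WT. The median log2 fold change of the antenna list was −0.313 in ft, −1.70 in tfl1 and −1.69 in WT, and that of photosystem subunits −0.263, −1.65 and −1.78. The effect in ft was higher than in tfl1 for 17 of 18 antenna and 23 of 24 photosystem genes and lower for none. Against WT these counts were 15 and 20. With the trend removed they were 17 and 22 against tfl1 and 14 and 17 against WT, and without untreated WT replicate 1 they were 17 and 22. SAUR genes had medians of 0.499 in ft, −0.346 in tfl1 and −1.52 in WT, with 33 of 62 higher in ft than in tfl1 and 17 higher than in WT. Those counts were 16 and 6 with the trend removed, and 44 against WT without untreated WT replicate 1. Core histones, at 0.0963, −0.564 and −1.29, had 25 of 39 higher in ft than in tfl1 and 25 higher than in WT, or 20 and 11 with the trend removed and 36 against WT without untreated WT replicate 1. Morning clock genes had medians of 2.81, 2.82 and 2.57, with 3 higher and 4 lower in ft than in tfl1, or 3 and none with the trend removed.

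Single genes differed as well. LHB1B1 fell less in ft, by 3.48 against tfl1 (edgeR adjusted p = 2.41e-06) and by 4.38 against WT (edgeR adjusted p = 0.000195). For TSF the effect in ft exceeded that in tfl1 by 6.63 ± 0.33 (edgeR adjusted p = 2.07e-07), and mean TSF in tfl1 was 3.50 CPM untreated and 0.098 CPM after FRP. In WT it went from 0.227 to 1.44 CPM, and the difference from ft did not pass (−1.16, edgeR adjusted p = 0.0238). SOC1 did not differ detectably between ft and tfl1 (0.037 ± 0.20 SE) or WT (0.23 ± 0.22), and neither did FUL (−0.066 ± 0.33 and −0.094 ± 0.54). HFR1 rose more in ft than in tfl1, by 2.95 (edgeR adjusted p = 2.74e-06). ABR1 fell in ft by 4.02 more than in WT (edgeR adjusted p = 0.000808), while its difference from tfl1 did not pass (0.42, edgeR adjusted p = 0.603). BT2 fell less in ft than in WT, by 2.94 (edgeR adjusted p = 0.000229), and its difference from tfl1 did not pass either (−0.22, edgeR adjusted p = 0.063). LFY had an effect lower in ft than in WT by 1.48 ± 0.38, which did not pass at 0.005 (edgeR adjusted p = 0.00902) and did without untreated WT replicate 1 (−1.77, edgeR adjusted p = 0.00145). Against tfl1 it was lower by 1.12 ± 0.28 (edgeR adjusted p = 0.00503), and by 1.5 with the length and GC trend removed, which passed (edgeR adjusted p = 0.00171). Other settings went the other way. No floral promoter, LFY included, differed from WT with the trend removed, or from tfl1 with all 18 libraries in 1 fit. The calls for LFY therefore depended on the setting.

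**Figure D5:**
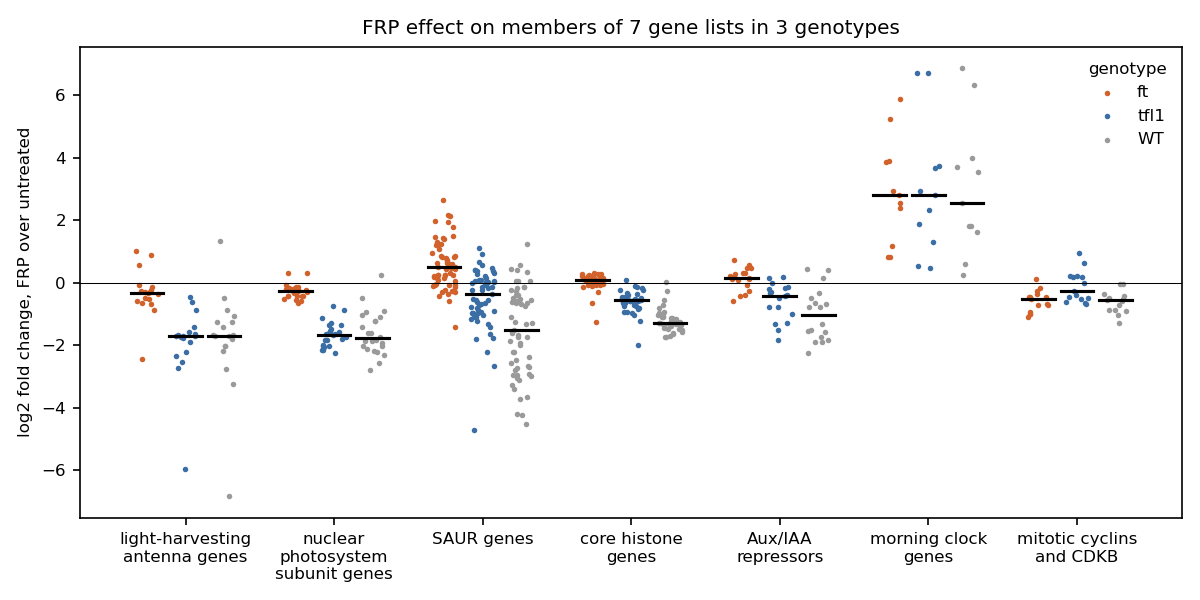
Log2 fold change (FRP over untreated, y axis) of each tested member of 7 gene lists in ft (orange), tfl1 (blue) and WT (grey), each from its own fit, with a bar at the median. Antenna genes sit at a median of −0.313 in ft and −1.70 and −1.69 in tfl1 and WT, while morning clock genes have medians of 2.81, 2.82 and 2.57.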

How the data were processed

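The deposited files hold raw counts per gene, made by the authors from single-end reads of TruSeq libraries that were trimmed, mapped to the TAIR 10 genome and counted over Araport11 gene models without strand information. The submitters' processing notes name STAR 2.5.3a and HTSeq 0.7.2. Without strand, reads from overlapping or antisense genes cannot be told apart, and 26 of 790 list members were listed at 0 in all 18 libraries. The labels mark 2 ft libraries per condition as analysed (untreated replicates 2 and 3, FRP replicates 1 and 3); all 6 were used here.

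A gene was tested if 2 or more of the 6 libraries gave it 10 counts or more. The test was edgeR's quasi-likelihood F test (version 4.0.16, R 4.3.3) after TMM scaling, with p adjusted by Benjamini and Hochberg's method and a threshold of 0.005. SE is the absolute log2 fold change divided by the square root of F. CPM values use TMM library sizes. Differences between genotypes were interaction contrasts over 12 libraries. Alternatives included DESeq2 1.42.0 and the removal, in each library, of smooth trends of log2 counts on transcript length and GC content (splines of 5 degrees of freedom).

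Of 37336 genes, 37051 matched RefSeq, which gave symbols, coordinates and promoter sequences (TAIR10.1). The 37 lists hold 790 genes, 701 of them tested. Named genes are the 8 largest changes in each direction with a symbol, a mean of at least 50 counts, no overlap between groups and the same sign in the 4 libraries the study used; up to 3 members per list and direction with a mean of at least 20 counts; and a fixed set of flowering, clock and shade genes. Others (ATC, BBX25, CBF1, CBF3, CDC20.1, COR15A, CLV3, CML24, CYCB1;1, ELF3, EXPA1, EXPA8, HY5, KNAT1, KNAT2, LNK2, LNK4, LUX, PRR3, RUP2, RVE1, RVE2, SVP, TT8, TT19, WUS and ZAT12) were added as list members after their values were seen. The members and lists were chosen with earlier results of these data known. The labels do not say how the replicates were grown, so p-values measure only the spread between these samples.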

Additional observations from a re-analysis of the deposited data

Results flagged for a closer look

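The FRP effect in ft differed from that in tfl1 for 8485 genes and from that in WT for 3707 genes in the tests of the difference itself (edgeR adjusted p of at most 0.005). Length trends moved in opposite directions in these genotypes, and their part was not tested beyond the removal of the trend given in the report.

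Among the flowering, clock and shade genes of the fixed set, the effect in ft was larger than in tfl1 for TSF (difference 6.634 on the log2 scale, edgeR adjusted p = 2.07e-07), HFR1 (2.953, 2.74e-06) and PIL1 (1.005, 0.000154). It was lower than in tfl1 for TFL1 (−1.612, edgeR adjusted p = 2.63e-06), which is the gene mutated in tfl1-1, for CCA1 (−1.498, 0.000246) and for LHY (−0.855, 0.00142). The differences for CCA1 and LHY were −0.79 and −0.020 with the length and GC trend removed and then did not pass (edgeR adjusted p = 0.00526 and 0.992). Against WT the effect was lower for CO (−2.142, edgeR adjusted p = 0.00355), and it did not pass with the trend removed (−1.37, edgeR adjusted p = 0.00603).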

How the results depend on the processing

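The counts of higher and lower genes were 1164 and 1391 with all 18 libraries in 1 fit, 5200 and 5451 at an adjusted p of at most 0.05, and 781 and 427 with at least a 2-fold change. Leaving out 1 library at a time gave 1630 to 3688 higher and 1731 to 3827 lower genes. They stayed within 1.5 times with the study's 2 libraries per condition (2582 and 2495, of which 2250 and 2253 were the same genes), DESeq2 (3333 and 3303), other scalings, filters, equal depth and the trend removed (4102 and 3683). Scaling by library totals gave 2659 and 3473, a share higher of 43.4% against 47.8%. No gene was called in the opposite direction under any alternative run. Of 172 named genes tested, 77 lost their call with all 18 libraries, 90 under the 2-fold threshold, 15 with the study's 4 libraries and 0 to 38 when 1 library was left out (38 without FRP replicate 3, 37 without untreated replicate 3). FUL lost its call with the study's libraries (edgeR adjusted p = 0.0158).

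Genes differing between ft and tfl1 numbered 3838 with all 18 libraries and 6395 to 9970 when 1 library was left out. Between ft and WT they numbered 12106 with the study's libraries, 6669 with all 18, 7826 with DESeq2, 2145 with the length and GC trend removed (chosen after seeing the data) and 815 to 12670 when 1 library was left out. The causes were not tested.

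Whether the replicate numbers pair the samples was not settled. Deviations of same-numbered libraries correlated at 0.229 and 0.22 for replicates 1 and 2, against −0.209 and −0.234 across these numbers. For replicate 3 the value was 0.0102, and FRP replicate 3 correlated best with untreated replicate 2 (0.0519). A replicate block gave 4015 higher and 4044 lower genes, 10283 genes differing from tfl1 and 379 differing from WT.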
